A study of Mus musculus with 8 samples.

Results

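The replicate difference described here was that between replicate 2 and replicate 1 in the 4 libraries labelled mock and LPS_IFNg, with the labelled group as block. These were 4 of the 8 libraries of the series, picked by label with earlier results of these data known. The replicate 2 side held the libraries mock replicate 2 and LPS_IFNg replicate 2, and the replicate 1 side held mock replicate 1 and LPS_IFNg replicate 1. Mock cells received dimethyl sulfoxide, the solvent. The LPS_IFNg label stands for lipopolysaccharide (10 ng/ml), a bacterial cell wall component, with interferon-gamma (20 ng/ml), a T cell and natural killer cell cytokine, for 24 h. The other 4 libraries, labelled TubB and LPS_IFNg_TubB, carry the plant phenylethanoid glycoside Tubuloside B without and with that stimulus and served as a set in which the same replicate difference was measured again. The dose of Tubuloside B is not given in the sources used here. All groups are RAW264.7, a line of mouse macrophage-like cells from a virus-induced tumour. The design text gives 2 repetitions and nothing says whether these were cultured apart, so each p reflects only how much the sequenced samples vary, possibly for technical reasons.

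The libraries labelled LPS_IFNg lacked the marker response of the stimulus. Nos2, the inducible nitric oxide synthase, had 155 and 166 CPM (read counts put on one library scale with TMM factors) in replicate 2 of mock and LPS_IFNg, against 176 and 199 CPM in replicate 1, while the 4 libraries with TubB in the label held between 5828 and 7538 CPM. Il6, an inflammatory cytokine, had 0 and 0 counts in replicate 2 of mock and LPS_IFNg, against 1 and 0 in replicate 1. Group names are therefore used below as labels only. Macrophage genes such as Cd14, Cd68, Csf1r, Lyz2 and Spi1 were present in all 4 libraries, and Adgre1, which encodes F4/80, was low at 13.1 and 15.7 CPM in replicate 2, against 11.6 and 10.8 CPM in replicate 1. Of 55 markers of other cell types, 33 had no count in the 4 libraries and 50 had at most 10 counts in each. Those with more were Itgax, Vwf, S100a8, Csf3r and Col1a1. Itgax had 39.2 and 41.8 CPM in replicate 2, against 43.3 and 40.9 CPM in replicate 1. For Vwf the values were 30.7 and 31.3 CPM, against 35.8 and 40.6 CPM, so both were above Adgre1.

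Several groups of genes described below have well-known roles. Selenoproteins carry selenocysteine, an amino acid inserted at a UGA codon that otherwise ends translation. In mammalian cells short of selenium the messenger RNAs of some selenoproteins, Gpx1 and Selenow among the best known, are removed by nonsense-mediated decay, while others are spared. NRF2 is a transcription factor that is released from its inhibitor Keap1 by electrophiles and oxidants and drives genes of glutathione, thioredoxin, NADPH, heme and iron handling through antioxidant response elements in their promoters. HIF is the factor of the response to low oxygen, and p53 the factor of the response to DNA damage. In macrophages, heme breakdown and iron export are core functions tied to the clearance of red cells.

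The selenocysteine codons of the 3 selenoprotein genes that were lower in replicate 2 are shown because that codon sets these transcripts apart. They are given in their reading frame with flanking coding bases of GENCODE M21 on GRCm38, with the UGA codon (as TGA) in capitals.
Gpx1 (chr9:108339451-108339453, plus strand, codon 47): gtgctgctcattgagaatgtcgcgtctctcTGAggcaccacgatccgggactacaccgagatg
Selenow (chr7:15920464-15920466, minus strand, codon 13): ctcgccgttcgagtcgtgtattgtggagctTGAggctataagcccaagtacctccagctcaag
Selenoh (chr2:84670381-84670383, minus strand, codon 38): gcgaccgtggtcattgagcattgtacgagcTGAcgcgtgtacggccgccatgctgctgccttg
In Gpx1 the last exon junction lies 105 bases after the codon, in Selenoh 136 and in Selenow 243. Such a downstream junction was not particular to these genes: Gpx4, which encodes the phospholipid hydroperoxide peroxidase, has one 342 bases after its codon, and Selenot, an oxidoreductase of the endoplasmic reticulum, one 470 bases after it. Sephs2, which makes the selenophosphate used for selenocysteine synthesis and is itself a selenoprotein, has no exon junction after its UGA codon. The same holds for Txnrd1, Txnrd3, Selenoi, Selenoo, Selenos, Dio2 and Dio3. Of these, Txnrd1 was called lower in replicate 2 of the TubB and LPS_IFNg_TubB libraries.

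Promoters of genes higher in replicate 2 are shown for the motifs they hold, as the 250 bases before a RefSeq start on GRCm38.p6. Both strands were searched for TGACNNNGC, the core of the antioxidant response element, and ACGTG, the core of the hypoxia response element. Gclm and Prdx1 stand for genes of the NRF2 list, with the first motif in capitals.
Gclm (chr3:122245307-122245556, plus strand): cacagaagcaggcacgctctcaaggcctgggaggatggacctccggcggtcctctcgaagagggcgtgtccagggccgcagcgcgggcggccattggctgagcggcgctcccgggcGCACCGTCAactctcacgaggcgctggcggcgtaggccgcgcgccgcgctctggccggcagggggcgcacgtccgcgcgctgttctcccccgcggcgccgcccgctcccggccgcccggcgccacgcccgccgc
Prdx1 (chr4:116685349-116685598, plus strand): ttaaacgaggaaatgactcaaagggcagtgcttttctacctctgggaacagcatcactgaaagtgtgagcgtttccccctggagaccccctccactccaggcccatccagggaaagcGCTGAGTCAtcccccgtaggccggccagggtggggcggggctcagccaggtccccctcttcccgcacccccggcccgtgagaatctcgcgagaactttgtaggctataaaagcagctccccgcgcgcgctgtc
Bnip3 and Ldha stand for genes of the HIF list, with the second motif in capitals. Where it reads on both strands it appears as the palindrome CACGTG, which is also the E-box of other factors. The window of another Ldha start (chr7:46846832-46847081, plus strand), not shown, holds neither motif.
Bnip3 (chr7:138909507-138909756, minus strand): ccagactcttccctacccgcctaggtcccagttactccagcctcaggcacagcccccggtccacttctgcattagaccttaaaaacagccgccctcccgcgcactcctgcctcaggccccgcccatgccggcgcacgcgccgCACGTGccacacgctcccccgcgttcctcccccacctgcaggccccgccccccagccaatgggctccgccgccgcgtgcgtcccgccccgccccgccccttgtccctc
Ldha (chr7:46845554-46845803, plus strand): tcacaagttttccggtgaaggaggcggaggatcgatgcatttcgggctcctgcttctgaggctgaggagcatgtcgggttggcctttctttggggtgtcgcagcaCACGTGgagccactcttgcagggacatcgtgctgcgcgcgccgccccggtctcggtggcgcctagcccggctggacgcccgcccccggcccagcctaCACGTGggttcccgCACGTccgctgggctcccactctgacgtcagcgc
The antioxidant motif was found for 3 of the 8 NRF2-list genes that were called higher and had a promoter in the table (Gclm, Prdx1 and G6pdx), or 37.5%, against 14.1% of the tested genes with a promoter. It was also in 33.3% of the 6 glycolysis genes called higher, 0 of 3 such iron and heme genes, and 14.9% of all genes called higher. The hypoxia motif was found for 5 of 5 HIF-list genes called higher, against 26.1% of the tested genes. It was also in 83.3% of the 6 glycolysis genes and 40.4% of all genes called higher. For the NRF2 list its share was 25.0% and for iron and heme genes 33.3%. Several genes have more than 1 annotated start. Per promoter window the hypoxia motif was in 55.6% of the windows of the 5 HIF-list genes and 22.3% of the tested genes' windows. A match describes the letters of a window and not a bound site. The HIF and NRF2 lists name genes known for these factors, and their members that were not called were not counted apart. The shares therefore cannot tell whether a motif goes with the call or only with being on the list.

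Between the replicates of the 4 libraries, 90 of 10577 genes tested differed (0.851%) by edgeR's quasi-likelihood test at an adjusted p under 0.05. Of these, 55 were higher (0.520%) and 35 lower (0.331%) in replicate 2. The differences were small. The median gene called higher was 1.22-fold higher in replicate 2, and 4 genes (0.0378%) differed by at least 1 on the log2 scale, namely Tmem35b, Gm40309, Zfp811 and LOC115486508. The median log2 difference over all genes tested was 0.00095. Both replicate 2 libraries lay beyond both replicate 1 libraries for all 55 genes called higher and for 34 of the 35 called lower, the exception being the mitochondrial transfer RNA TrnL2. The same separation held for 39.5% of all genes tested, and 9.55% had an unadjusted p under 0.05.

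**Figure D1:**
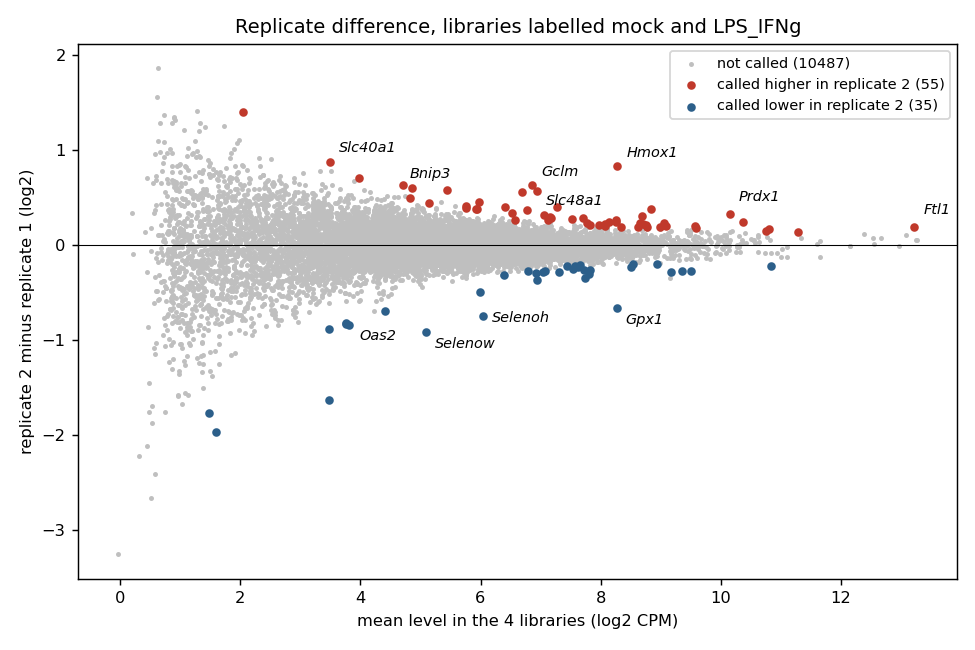
Log2 difference of replicate 2 minus replicate 1 in the libraries labelled mock and LPS_IFNg (vertical axis) against the mean level of each gene in those 4 libraries in log2 CPM (horizontal axis), 1 point per gene of the 10577 tested. Red points are the 55 genes called higher and blue points the 35 called lower in replicate 2. Hmox1 and Gpx1 stand far from 0 at a high level.

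The number of called genes depended on both pairs of libraries being present. Leaving out a library leaves the other group's pair alone to give the difference, and then 7 genes were higher and 8 lower without either mock library, and 13 higher and 9 lower without either LPS_IFNg library. Gpx1, Selenow, Hmox1, Gclm, Slc48a1, Srxn1, Cdkn1a, Esd and Gm40309, 9 genes in all, were called from either pair alone. The 4 such fits hold only 2 distinct differences, each of 1 library against 1, and their spread comes from the TubB and LPS_IFNg_TubB libraries, like which the lone pair is assumed to vary. DESeq2 called 18 higher and 7 lower, all 25 among the 90, and limma on the deposited regularised log2 values called 0, with 777 genes at an unadjusted p under 0.05. Across the 5690 genes averaging 5 log2 CPM or more, the replicate difference in the mock pair and that in the LPS_IFNg pair, which share no library, had a Pearson r of 0.258 and a Spearman rho of 0.236, given as a description across genes that are not independent. Over all genes tested the Pearson r was 0.0962. The pair differences had the same sign for 57.7% of the 5690 genes and for 55.5% of all genes tested. Libraries with the same replicate number were the more alike. A chi-square per gene averaged 1.91 between the replicate 2 libraries of mock and LPS_IFNg and 1.97 between the replicate 1 libraries, against 2.53 to 2.90 for the pairs that join replicate 2 to replicate 1.

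**Figure D2:**
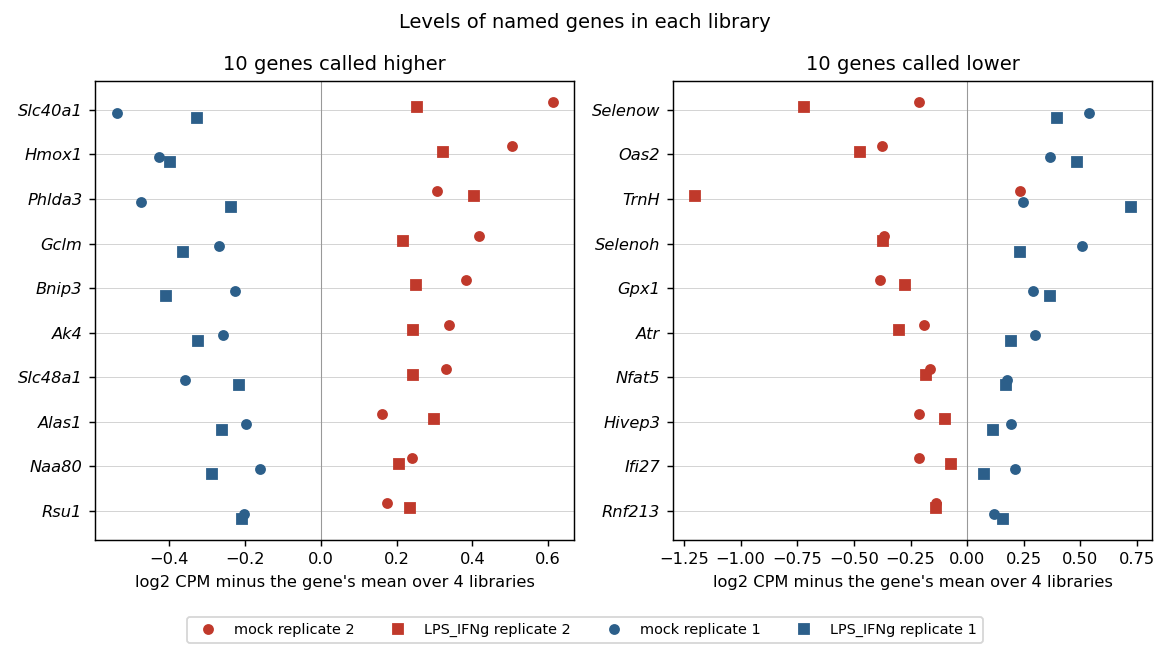
Level of each named gene in each of the 4 libraries, as log2 CPM minus the gene's mean over the 4 (horizontal axis), for the 10 genes called higher (left) and the 10 called lower (right) in replicate 2 that the naming rule picked. Red marks are replicate 2 and blue marks replicate 1, circles are mock and squares LPS_IFNg, and the colours separate in every gene shown, narrowly for TrnH in the mock pair.

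Messages of 3 selenoproteins were lower in replicate 2. Gpx1, the cytosolic glutathione peroxidase that reduces hydrogen peroxide, had 235 and 254 CPM in replicate 2 of mock and LPS_IFNg, against 376 and 396 CPM in replicate 1. The replicate 2 libraries stood well below the replicate 1 libraries and each pair was tight, and the log2 difference was -0.66 ± 0.055 (SE; adjusted p = 3.62e-29 by edgeR). Selenow, a small thiol-redox selenoprotein abundant in muscle and brain, had 29.1 and 20.5 CPM in replicate 2, against 48.9 and 44.3 CPM in replicate 1. Its log2 difference of -0.91 ± 0.12 (adjusted p = 1.92e-10 by edgeR) was the largest of the 3, again with no overlap. Selenoh, a nucleolar selenoprotein, had 50.7 and 50.4 CPM in replicate 2, against 92.7 and 76.7 CPM in replicate 1, a log2 difference of -0.75 ± 0.10 (adjusted p = 4.85e-10 by edgeR). Selenoh lost its call without either mock library (log2 difference -0.60, adjusted p of 0.0852 without replicate 1 and 0.0551 without replicate 2).

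Sephs2 went the other way. It had 239 and 224 CPM in replicate 2, against 199 and 180 CPM in replicate 1, with no overlap and a log2 difference of 0.29 ± 0.062 (adjusted p = 0.00098 by edgeR), a call that was lost when any 1 of the 4 libraries was left out. DESeq2 called Gpx1 (adjusted p = 5.17e-12), did not call Sephs2 (adjusted p = 0.256) and gave no adjusted p for Selenow and Selenoh. The selenoprotein list held 24 genes, 6 of them without a count in the 4 libraries, and 17 were tested. Of these, 3 were called lower (17.6%, against 0.331% of all genes tested) and 1 higher (5.88%, against 0.520%). The median log2 difference of the 17 was -0.011, near that of all genes. Gpx4 had a log2 difference of 0.14 (adjusted p = 0.416), the cytosolic thioredoxin reductase Txnrd1 0.13 (adjusted p = 0.286) and Selenot -0.15 (adjusted p = 0.312), none of them called by edgeR. The machinery that inserts selenocysteine, 9 genes tested, had 0 called genes by edgeR and a median log2 difference of -0.070.

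The same selenoproteins differed the same way in the libraries labelled TubB and LPS_IFNg_TubB. The libraries and gene lists were chosen with earlier results of these data known, so this is not an independent check. Gpx1 had 250 and 276 CPM in replicate 2 of those groups, against 403 and 397 CPM in replicate 1, a log2 difference of -0.61 ± 0.056 (adjusted p = 2.80e-24 by edgeR). Selenow had 45.1 and 56.7 CPM in replicate 2, against 113 and 119 CPM in replicate 1, a log2 difference of -1.20 (adjusted p = 2.94e-28 by edgeR). Selenoh differed by -0.52 and Sephs2 by 0.49 on the log2 scale there, both called. For these 4 genes the difference between the sets was not called, with adjusted p of 0.839 for Gpx1, 0.389 for Selenow, 0.561 for Selenoh and 0.304 for Sephs2 by edgeR. In that set 215 of the genes tested were called higher (2.03%) and 314 lower (2.97%). Of the 17 selenoprotein genes, 1 was called higher and 5 lower there, the other two being Msrb1 and Txnrd1. Across all 8 libraries, Gpx1 was thus between 235 and 276 CPM in every replicate 2 library and between 376 and 403 CPM in every replicate 1 library.

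**Figure D3:**
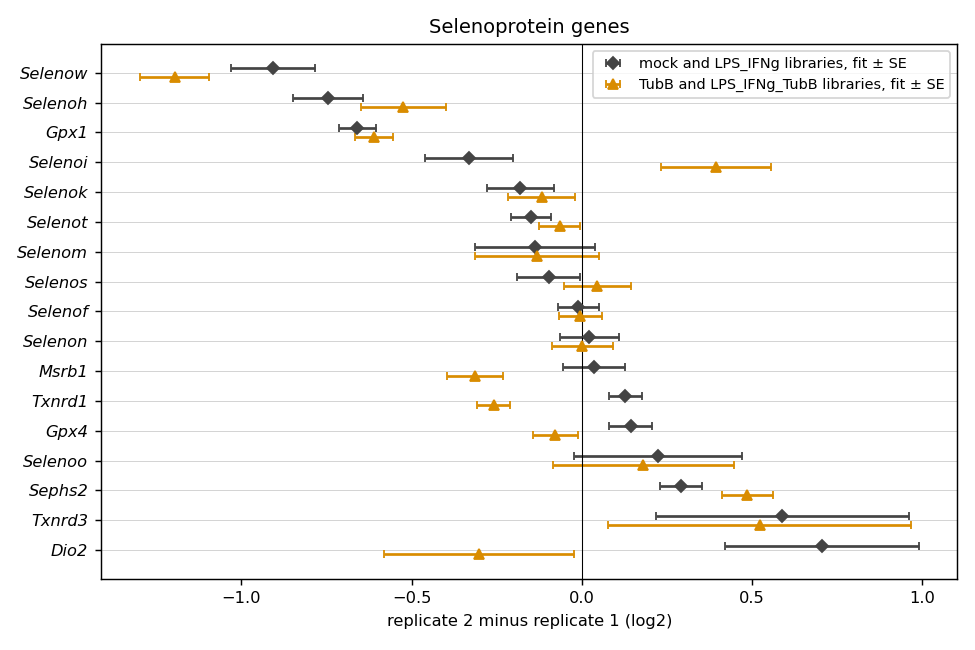
Log2 difference of replicate 2 minus replicate 1 for the 17 selenoprotein genes tested (horizontal axis), as the fitted value with its standard error, in the mock and LPS_IFNg libraries (diamonds) and in the TubB and LPS_IFNg_TubB libraries (triangles). Selenow, Selenoh and Gpx1 lie left of 0 and Sephs2 right of 0 in both sets.

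Of all the gene lists, that of NRF2 and glutathione had the most genes called higher in replicate 2. Of 29 tested, 9 were called higher (31%, against 0.520% of all genes tested) and 0 lower. A positive log2 difference was found for 27, and the median of the 29 was 0.17. Without either mock library 3 were called, and without either LPS_IFNg library 4, all of them among the 9. In the TubB and LPS_IFNg_TubB libraries 1 of the 29 was called higher (Gclm) and 3 lower (Prdx1, Prdx5 and Txnrd1), with a median of -0.0048. Of all genes tested, 2.03% were called higher and 2.97% lower there. Hmox1, which opens the heme ring to release iron, carbon monoxide and biliverdin, had 440 and 388 CPM in replicate 2 of mock and LPS_IFNg, against 230 and 235 CPM in replicate 1. It was 1.78-fold higher with no overlap, a log2 difference of 0.83 ± 0.052 (adjusted p = 1.65e-52 by edgeR). Gclm, the modifier subunit of the enzyme that limits glutathione synthesis, had 155 and 135 CPM in replicate 2, against 96.2 and 90.01 CPM in replicate 1, a log2 difference of 0.64 ± 0.072 (adjusted p = 2.94e-15 by edgeR). Its catalytic partner Gclc did not pass the test, with 78.0 and 81.4 CPM in replicate 2, against 81.0 and 71.9 CPM in replicate 1. Exons of Gclm overlap those of Gm46822, and the counts do not use strand, so reads from the shared bases cannot be told apart. The same holds for Prdx1 with AV051173, G6pdx with Ikbkg, Slc48a1 with Hdac7, Slc2a1 with LOC115489942 and LOC115489941, Ldha with Gm39011, Slc16a3 with Csnk1d, Plin2 with LOC101055843 and Acaca with Tada2a. It also holds for Adar with Chrnb2, Ifi27 with Ifi27l2a, Rnf213 with A930037H05Rik and Mir1932, Hspa5 with Rabepk, Atr with 1700065D16Rik and Gm16794, Smg1 with 4930583K01Rik, Adam8 with LOC102635948, Naa80 with Hyal1 and TrnL2 with TrnS2.

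Other called members of the list handle peroxide, NADPH or cystine. Srxn1, which repairs over-oxidised peroxiredoxins, had 172 and 184 CPM in replicate 2, against 131 and 137 CPM in replicate 1, a log2 difference of 0.40 ± 0.064. Prdx1, an abundant cytosolic peroxiredoxin, had 1283 and 1259 CPM in replicate 2, against 1004 and 1020 CPM in replicate 1, a log2 difference of 0.33 ± 0.042, while it was called lower in the TubB and LPS_IFNg_TubB libraries (-0.16, adjusted p = 0.00281 by edgeR). Catalase (Cat) differed by 0.30, G6pdx, the entry enzyme of the NADPH-yielding pentose phosphate pathway, by 0.24, and Slc7a11, the cystine importer for glutathione synthesis, by 0.20 on the log2 scale. All 5 were called and had no overlap between the replicates. Nfe2l2, which encodes NRF2, had 160 and 158 CPM in replicate 2, against 152 and 160 CPM in replicate 1, and Keap1 had 64.6 and 58.9 CPM, against 71.7 and 61.4 CPM; neither was called.

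Iron and heme genes overlapped with that group and extended it. Of 24 tested, 6 were called higher (25%, against 0.520% of all genes tested) and 0 lower, with a median log2 difference of 0.087. Leaving out any 1 of the 4 libraries left 2 called, Hmox1 and Slc48a1. In the second set 1 was called higher and 0 lower. Slc40a1, which encodes the iron exporter ferroportin, had 16.7 and 13.03 CPM in replicate 2, against 7.52 and 8.71 CPM in replicate 1, a log2 difference of 0.88 ± 0.22 (adjusted p = 0.0124 by edgeR). At this low level the 4 libraries held 116, 77, 54 and 53 reads in the same order. Slc48a1, which brings heme out of the phagolysosome, had 153 and 144 CPM in replicate 2, against 95.1 and 105 CPM in replicate 1, a log2 difference of 0.58 ± 0.073 (adjusted p = 1.05e-11 by edgeR). Alas1, the first enzyme of heme synthesis, had 69.8 and 76.8 CPM in replicate 2, against 54.5 and 52.1 CPM in replicate 1, a log2 difference of 0.46 ± 0.095. Blvrb, a biliverdin reductase, differed by 0.39 on the log2 scale. Ftl1, the ferritin light chain, had 10215 and 10202 CPM in replicate 2, against 8762 and 9092 CPM in replicate 1, a log2 difference of 0.19 ± 0.037. The heavy chain Fth1 was not called, at 10087 and 9703 CPM in replicate 2, against 9549 and 9520 CPM in replicate 1. Tfrc, the transferrin receptor, was not called either, with a log2 difference of 0.14 (adjusted p = 0.123 by edgeR).

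Hypoxia-response genes were the next group higher in replicate 2. Of 25 HIF targets tested, 5 were called higher (20%, against 0.520% of all genes tested) and 0 lower, with a median log2 difference of 0.16. Bnip3, a mitophagy receptor, had 33.5 and 30.6 CPM in replicate 2 of mock and LPS_IFNg, against 22.0 and 19.4 CPM in replicate 1, a log2 difference of 0.63 ± 0.12 (adjusted p = 7.59e-05 by edgeR). Ak4, a mitochondrial adenylate kinase, had 54.6 and 51.1 CPM in replicate 2, against 36.1 and 34.5 CPM in replicate 1, a log2 difference of 0.58 ± 0.10. The replicate 2 libraries of both genes stood clear of the replicate 1 libraries. Egln3, an oxygen-sensing prolyl hydroxylase, had 130 and 119 CPM in replicate 2, against 99.0 and 93.8 CPM in replicate 1. The glucose transporter Slc2a1 had 343 and 325 CPM in replicate 2, against 271 and 285 CPM in replicate 1. Lactate dehydrogenase Ldha differed by 0.15 on the log2 scale, with an adjusted p of 0.0477 close to the threshold. Hif1a itself, at 329 and 360 CPM in replicate 2, against 354 and 336 CPM in replicate 1, and Vegfa, with a log2 difference of 0.17, were not called. No HIF target was called without either mock library, where the LPS_IFNg pair alone gives the difference. Without either LPS_IFNg library 4 were called, of which 2 (Ak4 and Slc2a1) were among the 5 and 2 (Bnip3l and Ndrg1) were not. Bnip3, Egln3 and Ldha lost their call whichever of the 4 libraries was left out, with adjusted p of 0.0774 to 0.102 for Bnip3 by edgeR.

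Glycolysis shared Slc2a1 and Ldha with that list, and 6 of its 22 tested genes were called higher and 0 lower, with a median of 0.14, and 0 were called without either mock library and 1 without either LPS_IFNg library. The 6 were 27.3% of the glycolysis genes tested, against 0.520% of all genes tested. Hexokinase Hk1 differed by 0.23, the lactate exporter Slc16a3 by 0.22, Pgam1, which moves the phosphate of phosphoglycerate, by 0.19 and the aldolase Aldoa by 0.14 on the log2 scale. The p53 list had 4 of 25 called higher and 0 lower, with a median of 0.18, and 1 was called without any 1 of the 4 libraries. Cdkn1a, the cyclin-dependent kinase inhibitor p21, had 122 and 127 CPM in replicate 2, against 83.0 and 86.1 CPM in replicate 1, a log2 difference of 0.56 ± 0.071 (adjusted p = 1.07e-11 by edgeR). A numbered copy of Cdkn1a elsewhere in the assembly shares its sequence, so its reads may be split, and the copy had 33.7 and 36.9 CPM in replicate 2, against 21.4 and 25.0 CPM in replicate 1. Phlda3, an inhibitor of Akt, had 19.1 and 20.5 CPM in replicate 2, against 11.1 and 13.1 CPM in replicate 1, a log2 difference of 0.71 ± 0.19. The kinase Plk2 differed by 0.28 and Mdm2, the ubiquitin ligase of p53, by 0.22. The 4 called genes were 16% of the p53 list, against 0.520% of all genes tested.

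**Figure D4:**
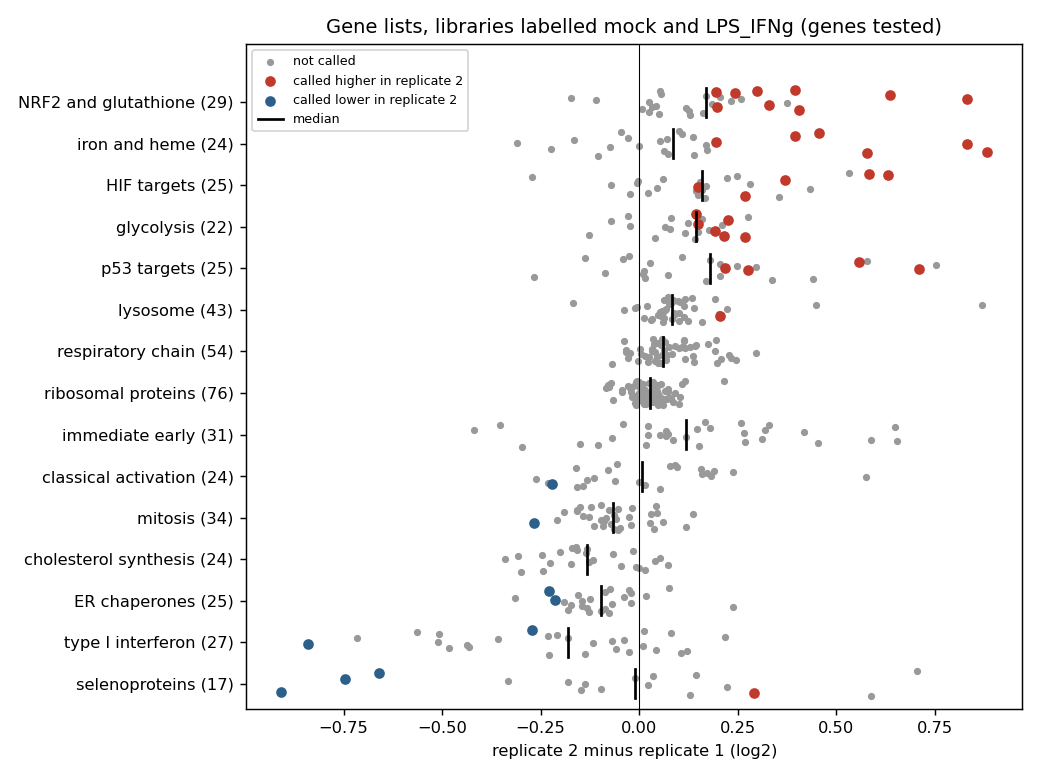
Log2 difference of replicate 2 minus replicate 1 in the libraries labelled mock and LPS_IFNg (horizontal axis) for every tested member of 15 gene lists, with the number tested in brackets and the median as a black bar. Red points were called higher and blue points lower in replicate 2. Called genes of the upper 5 lists are all on the right, and the selenoproteins have members at both ends.

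Lipid genes split. Plin2, which coats lipid droplets, had 433 and 444 CPM in replicate 2, against 362 and 383 CPM in replicate 1, and Lipa, the lysosomal lipase, and the secreted lipase Lpl were also called higher. Fasn, the fatty acid synthase, had 659 and 660 CPM in replicate 2, against 782 and 806 CPM in replicate 1, a log2 difference of -0.27 ± 0.048 (adjusted p = 1.73e-05 by edgeR). Acaca, which makes its substrate malonyl-CoA, differed by -0.28. Each of these called lipid genes lost its call whichever of the 4 libraries was left out. Acaca also lost it with the length trend removed (adjusted p = 0.166 by edgeR). Cholesterol synthesis had 0 of 24 genes called by edgeR, 20 of them with a difference below 0, and a median of -0.13. Its members with the smallest p were Insig1 (-0.34, adjusted p = 0.119) and Hmgcs1 (-0.25, adjusted p = 0.363).

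Some interferon and stress genes were lower in replicate 2. The type I interferon list had 2 of 27 called lower (7.41%, against 0.331% of all genes tested) and 0 higher, with a median of -0.18. Both of them, Oas2 and Adar, lost their call whichever of the 4 libraries was left out, with adjusted p of 0.0853 to 0.315 for Oas2 and 0.463 to 0.788 for Adar by edgeR. The 1 gene called without either LPS_IFNg library was Oas3. Oas2, a sensor of double-stranded RNA, had 10.5 and 9.82 CPM in replicate 2, against 17.5 and 19.1 CPM in replicate 1, a log2 difference of -0.84 ± 0.17 (adjusted p = 0.00054 by edgeR). The RNA-editing enzyme Adar had 99.3 and 102 CPM in replicate 2, against 122 and 120 CPM in replicate 1, and Ifi27 and Rnf213, genes outside that list that interferon is known to raise, differed by -0.29 and -0.28. Nos2 was called lower, with a log2 difference of -0.22, and Ptgs2, the inducible prostaglandin synthase, was not, with 43.3 and 44.7 CPM in replicate 2, against 43.9 and 43.0 CPM in replicate 1. With the 4 libraries fitted alone, 8 of 25 chaperone genes of the endoplasmic reticulum were called lower. That fit called 171 of all 10577 genes tested in either direction, against 90 in the fit to all 8 libraries. In the fit to all 8 libraries, 2 of the 25 chaperone genes were called lower (8%, against 0.331% of all genes tested) and 22 had a negative difference. Both calls were lost whichever of the 4 libraries was left out. Hspa5, the chaperone BiP, had 1669 and 1719 CPM in replicate 2, against 1964 and 1965 CPM in replicate 1, and Creld2 differed by -0.23. The proliferation antigen gene Mki67 had 578 and 615 CPM in replicate 2, against 693 and 742 CPM in replicate 1. It was the 1 called gene of the 34 of the mitosis list (2.94%, against 0.331% of all genes tested). The median of that list was -0.067. Atr, the replication-stress kinase, had 55.6 and 51.4 CPM in replicate 2, against 78.0 and 72.4 CPM in replicate 1. Nfat5, the factor of the response to high salt, had 189 and 188 CPM in replicate 2, against 239.8 and 239 CPM in replicate 1, a log2 difference of -0.35 ± 0.060 (adjusted p = 8.15e-06 by edgeR, 0.0532 by DESeq2). Nos2, Rnf213, Mki67, Atr and Nfat5 also lost their call whichever of the 4 libraries was left out, and Ifi27 lost its call without either mock library.

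Several lists held no called gene by edgeR. At the 0.851% called among all genes tested, a list of their size would hold fewer than 1, so these counts lie at the background. They were the nuclear respiratory chain (0 of 54, although 47 had a positive difference, median 0.061), ribosomal proteins (0 of 76), ribosome biogenesis (0 of 30), the citric acid cycle (0 of 24), aminoacyl-tRNA synthetases (0 of 19), DNA replication (0 of 39), immediate early genes (0 of 31), the circadian clock (0 of 16) and macrophage identity (0 of 21). The lysosome list had 1 of 43 called, Lipa, with 39 positive differences and a median of 0.084. Noncoding RNAs and hosts of small nucleolar RNAs had 0 of 19 called and a median of -0.29. When the 4 libraries were fitted alone, some of these lists gained calls. More genes were called in that fit at large, 171 of 10577 tested in either direction, against 90 in the fit to all 8 libraries. The respiratory chain had 2 called higher (Atp5d and Ndufv1) and the lysosome list 4 in all. Called lower were 3 genes of ribosome biogenesis (Fbl, Ncl and Nop56), 2 noncoding RNAs (Kcnq1ot1 and Malat1), the synthetase gene Wars and, in cholesterol synthesis, Insig1. Glycolysis had 11 called higher in that fit.

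Called genes also differed in length. The exon length of the genes called higher in replicate 2 had a median of 2519 bases, that of the genes called lower 6827 bases and that of all genes tested 3673 bases. Of the 35 lower, 20 lay in the longest quartile of genes, and of the 55 higher, 21 lay in the shortest. The median log2 difference was 0.030, 0.012, -0.0059 and -0.029 from the shortest to the longest quartile, and it had the same direction in the mock pair (0.015 in the shortest and -0.029 in the longest quartile) and the LPS_IFNg pair (0.041 and -0.028). The short genes Gpx1, Selenow and Selenoh, of 1045, 705 and 685 bases, were called against that direction. With the length trend removed from each library, 121 genes were called, among them 84 of the 90. By mean level, 42 of the 55 genes higher and 23 of the 35 lower lay in the highest quartile, where counting error is smallest.

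Most of the 90 genes were not called in the same direction in the second set of libraries. Of them, 12 were called in the same direction and 20 in the opposite direction in the TubB and LPS_IFNg_TubB libraries, together 35.6% of the 90 and 6.05% of the genes called there. The difference between the sets was called for 406 of all genes tested (3.84%), above 0 for 226 (2.14%) and below 0 for 180 (1.70%). It was called above 0 for 40 of the 55 genes higher and below 0 for 17 of the 35 lower in replicate 2 of the first set. These genes were chosen by the first term of that difference, so the direction follows from the choice. Hmox1 had 1647 and 1529 CPM in replicate 2 of TubB and LPS_IFNg_TubB, against 1581 and 1499 CPM in replicate 1, so it was higher there in all libraries and did not pass the test between replicates (log2 difference 0.044). Its difference between the sets was 0.79 ± 0.069 (adjusted p = 4.61e-26 by edgeR). Gclm and Slc48a1 were called higher in replicate 2 of both sets. Slc48a1 differed by 0.58 and 0.31 on the log2 scale, without a called difference between the sets (adjusted p = 0.151 by edgeR). For Gclm the difference between the sets was called (log2 0.43, adjusted p = 0.00116 by edgeR).

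Called hypoxia, glycolysis and p53 genes lay mostly on the other side of 0 in the second set. Bnip3 had 239 and 276 CPM in replicate 2 of TubB and LPS_IFNg_TubB, against 373 and 363 CPM in replicate 1, a log2 difference of -0.52 ± 0.060, and its difference between the sets was 1.15 ± 0.13 (adjusted p = 2.74e-14 by edgeR). Of the HIF list, 5 genes were called higher and 0 lower in the mock and LPS_IFNg libraries, and 0 higher and 10 lower in the TubB and LPS_IFNg_TubB libraries. For glycolysis the counts were 6 higher and 0 lower in the first set, and 2 higher and 12 lower in the second. For p53 targets they were 4 higher and 0 lower, and 1 higher and 6 lower. Of 27 type I interferon genes, 2 were called lower in the first set and 25 in the second, with 0 called higher in each. Of all genes tested, 0.520% were called higher and 0.331% lower in the first set, and 2.03% and 2.97% in the second. Mki67 and Fasn, lower in the first set, were higher in the second by 0.26 and 0.25 on the log2 scale.

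**Figure D5:**
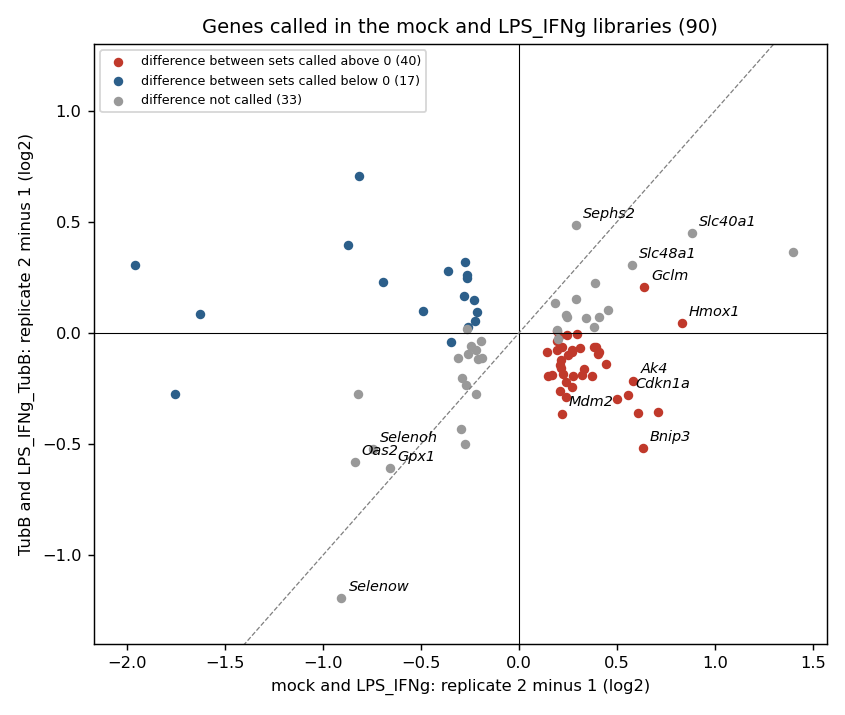
The 90 genes called between replicates in the mock and LPS_IFNg libraries, with their log2 difference of replicate 2 minus replicate 1 there (horizontal axis) and in the TubB and LPS_IFNg_TubB libraries (vertical axis). Red and blue points have a called difference between the sets, the dashed line marks equal differences, and the 3 selenoproteins lie near it while Bnip3 and Hmox1 lie far below it.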

How the data were processed

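RNA-seq counts of RAW264.7 cells were used as deposited. The submitters' processing notes name STAR 2.7.0 and featureCounts. The file headers give featureCounts 2.0.1, a RefSeq annotation of GRCm38.p6, exons summed by gene and no strand option, and the labels name poly(A) selection and a kit without strand. The deposited raw counts of 42454 rows summed to 6435249 and 5519706 in replicate 2 of mock and LPS_IFNg, and to 6648055 and 5617372 in replicate 1; mitochondrial genes took 0.166% to 0.179%. The authors also deposited regularised log2 values (rlog), used as an alternative.

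The members and gene lists were chosen with earlier results of these data known. edgeR 4.0.16 in R 4.3.3 was fitted to all 8 libraries (quasi-likelihood, robust, TMM) with the group as block, 1 replicate term for the mock and LPS_IFNg libraries and 1 for the others, which left 2 residual degrees of freedom. Genes were kept by filterByExpr on the 4 libraries (minimum count 10, minimum total 15), which left 10577, and called at a Benjamini-Hochberg adjusted p under 0.05. CPM are TMM-scaled. An exact permutation test of 2 against 2 within groups cannot go below 0.5. Lists were counted, not tested. Named were Gpx1, Selenow, Nos2, Ptgs2 and Il6; the 10 largest differences per direction among called, non-overlapping genes of at least 3 log2 CPM, without unnamed models, pseudogenes or symbols with a copy; and up to 4 called members per list, or the 2 with the smallest p. A few members a list is known for, and those of observations, were added to describe it. Alternatives were RLE factors, other count filters, the compared libraries alone, no group block, DESeq2 1.42.0, limma-voom and limma 3.58.1 on rlog, a log2 minimum of 1, leaving out each library, and removal of the length trend. The fit was tested on simulated data.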

Additional observations from a re-analysis of the deposited data

Results flagged for a closer look

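The replicate difference in the mock and LPS_IFNg libraries was set against that in the TubB and LPS_IFNg_TubB libraries, and 34 named genes had a called difference between the sets by edgeR (adjusted p of 4.61e-26 to 0.0455). Values below are log2, the first set minus the second, for genes chosen by a call in the first set, so that their sign follows from that choice. Among hypoxia and glycolysis genes the difference was Bnip3 1.15, Ak4 0.798, Egln3 0.566, Slc2a1 0.511, Hk1 0.41, Slc16a3 0.373 and Pgam1 0.271. Among p53 genes it was Phlda3 1.06, Cdkn1a 0.839, Mdm2 0.581 and Plk2 0.472. For genes of oxidant defence and heme it was Hmox1 0.786, Srxn1 0.502, Blvrb 0.457 and Gclm 0.43, and of these Gclm was also called higher in replicate 2 of the second set, where 3 other genes of the NRF2 and glutathione list were called lower.

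For genes of lipid handling and autophagy the difference was Plin2 0.527, Sqstm1 0.461 and Lipa 0.22, and for the lectins Lgals3 and Clec4d it was Lgals3 0.467 and Clec4d 0.384. For the proteases Plau and Adam8, the filament gene Vim, the acetyltransferase gene Naa80 and the amino acid transporter subunit Slc3a2 it was Plau 0.256, Adam8 0.232, Vim 0.358, Naa80 0.584 and Slc3a2 0.35.

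Genes lower in replicate 2 of the first set had negative differences. These were Acaca -0.593 and Fasn -0.514 in fatty acid synthesis, Mki67 -0.528 and Atr -0.59 in the cell cycle and its checkpoint, Creld2 -0.374 and Hspa5 -0.31 in the endoplasmic reticulum, and -0.303 for the osmotic-stress factor Nfat5. The mitochondrial transfer RNAs gave TrnH -1.52 and TrnL2 -1.27, each rested on the LPS_IFNg pair, where TrnH had 5.75 CPM in replicate 2, against 21.8 CPM in replicate 1, and the mock pair had 15.5 CPM in replicate 2, against 15.7 CPM in replicate 1. The causes of these differences were not tested. The sets also differ in marker-gene activation and in the Tubuloside B label, which cannot be told apart here.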

How the results depend on the processing

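No paired analysis was possible because the replicate number is itself the tested term, and the labelled group served as the block. All 90 called genes kept their sign under each alternative run except TrnL2, which was 0.048 without either LPS_IFNg library and -2.15 without either mock library. RLE factors, no count filter, a 1 CPM filter, limma-voom and removal of the length trend (added after seeing the data) left each count of the 3 contrasts within 1.5 times. Fitting the compared libraries alone gave 98 higher and 73 lower in the mock and LPS_IFNg libraries (75 and 49 with the group block dropped from that same fit), and 113 higher in the TubB and LPS_IFNg_TubB libraries. DESeq2 called 18 higher and 7 lower in the first set, 17 and 78 in the second, and 75 above and 21 below 0 for the difference between sets; 25 of the 90 genes had no adjusted p there. Limma on the regularised log2 values called 0 in each direction of the 3 contrasts, with 777, 1303 and 1191 genes at an unadjusted p under 0.05. A minimum of 1 on the log2 scale left 1 higher and 3 lower, 9 and 2, and 7 and 17. Leaving out 1 library gave 7 to 13 higher and 8 to 9 lower in the first set, 54 to 155 higher and 140 to 296 lower in the second, and 52 to 326 above and 38 to 215 below 0 for the difference. The causes of these changes were not tested, apart from the smaller number of libraries where one was left out. Of the list counts under the alternatives, 946 stayed within 1.5 times and 172 did not. Depth limited low genes: Ifih1, at 1.44 and 1.18 CPM in replicate 2 of mock and LPS_IFNg, against 2.23 and 2.14 CPM in replicate 1, had a log2 difference of -0.72 ± 0.45 and was not called.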

Other observations

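Among the 90 called genes, several belong to none of the groups described above and were picked after their values were seen. Esd, a glutathione-linked hydrolase that clears formaldehyde conjugates, had 533 and 514 CPM in replicate 2 of mock and LPS_IFNg, against 408 and 394 CPM in replicate 1, and was called from either pair alone. Cyb5a, cytochrome b5, had 99.9 and 96.0 CPM in replicate 2, against 64.6 and 84.4 CPM in replicate 1. Pmp22, a membrane protein gene, had 155 and 141 CPM in replicate 2, against 121 and 117 CPM in replicate 1. The 2 with the lowest values in replicate 2 among the unnamed models and zinc-finger genes were LOC115486508, with 1.15 and 1.52 CPM in replicate 2, against 4.87 and 5.58 CPM in replicate 1, and Zfp811, with 0.864 and 1.86 CPM, against 4.46 and 4.60 CPM. Gm40309 had 7.05 and 5.25 CPM in replicate 2, against 20.2 and 18.1 CPM in replicate 1.

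Very long genes for chromatin, RNA and cytoskeletal proteins were among those called lower. The histone methyltransferase gene Kmt2d (22866 exon bases) had 210 and 204 CPM in replicate 2, against 239 and 259 CPM in replicate 1. Macf1, a cytoskeletal linker (29560 bases), had 450 and 464 CPM in replicate 2, against 537 and 505 CPM in replicate 1. Smg1, a kinase of nonsense-mediated decay (16415 bases), had 177 and 174 CPM in replicate 2, against 206 and 203 CPM in replicate 1. Kmt2d, Macf1 and Smg1 lost their call whichever of the 4 libraries was left out. DESeq2 called none of them, with adjusted p of 0.241 for Kmt2d, 0.9994 for Macf1 and 0.638 for Smg1.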
